A study of Mus musculus with 6 samples.

Results

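The centromere and kinetochore genes compared here encode proteins of centromeric chromatin, of the kinetochore built on it and of the cohesion that surrounds it, with the centriole gene Cenpj listed beside them for its CENP name. They were chosen by gene symbol from a list of 36, of which 34 were found under that symbol in the array annotation. All 34 passed the filter on dim genes, among 18215 genes tested, though Cenpp and Cenpq passed only with m4PTB arrays counted. Where a gene had several probe sets, the brightest over the 6 arrays was taken. The study measured RNA of whole injured kidneys on expression arrays, 1 array per sample, in male BALB/c mice aged 10 to 12 weeks. Every mouse had 26 min of ischemia in 1 kidney and lost the other, so the controls carry the same injury and nephrectomy. Treatment was given 24 h after injury, as vehicle (hydroxypropyl-cyclodextrin in water) for 3 samples and as 100 mg/kg of m4PTB, known as an inhibitor of histone deacetylases, for 3 samples, and kidneys were taken 12 h later. Kidneys had been selected for a similar degree of injury by serum creatinine, blood urea nitrogen and Kim1. No uninjured kidney was analysed here. Signals are on the log2 scale, and because probe sets differ in their response to RNA, signals are compared between arrays and not between genes.

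Centromeres are marked by CENP-A, a variant of histone H3 that replaces the ordinary form in the nucleosomes where chromosomes attach to the spindle. A constitutive inner network of CENP proteins sits on these nucleosomes through the cell cycle, and in mitosis it recruits the KNL1, MIS12 and NDC80 complexes, which bind microtubules and serve as the platform of the spindle checkpoint. Many of these genes are transcribed mainly in late cell cycle phases, so little of their RNA is found in a resting adult kidney, while surviving tubule cells are known to enter the cell cycle after ischemic injury.

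Vehicle replicate 3 stood apart from the other arrays. Its median correlation with the others, over all genes, was 0.987, against 0.994 to 0.996 for the other arrays, and its negative control probe sets had a median of 5.56, against 5.88 to 5.95.

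All 34 genes had a higher mean in m4PTB than in vehicle kidneys, 32 with each array's median subtracted (Cenpb and Cenpj turned) and 33 after cyclic loess (Cenpb turned), but none passed the test over all genes. The median log2 difference was 0.41 and single differences ran from 0.0048 for Cenpb to 0.85 for Casc5 (1.80-fold), where the median over all genes tested was 0.01 and 54.5% of them had a higher mean. By limma with Benjamini-Hochberg adjustment over all genes, 0 of the 34 genes and 0% of all genes had an adjusted p under 0.05, and the members' adjusted p ran from 0.52 to 0.99. At an unadjusted p under 0.05, 20 of the 34 were higher, against 4.67% of all genes. The 3 m4PTB values lay entirely above the 3 vehicle values for 18 of the 34, against 9.39% of all genes, and entirely below for none, against 5.22%. A difference of at least 1.5-fold upward was found for 7 of the 34, against 0.505% of all genes. Since RNA of whole kidneys was measured, more cells that express these genes and more RNA per such cell cannot be told apart.

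For 25 genes the difference lay above the 95th percentile of all genes, 0.23 (5.0% of genes by construction), and ran from 0.24 for Cenph to 0.85. The other 9 ran from 0.0048 to 0.15 and were Cenpb, Cenpj, Ska1, Zw10, Pmf1, Zwint, Cenpo, Mis12 and Cenpt. This group holds the DNA-binding protein CENP-B, the centriole protein of Cenpj and Zw10, a protein with a known second role in membrane traffic between endoplasmic reticulum and Golgi, beside 6 other kinetochore proteins.

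**Figure D1:**
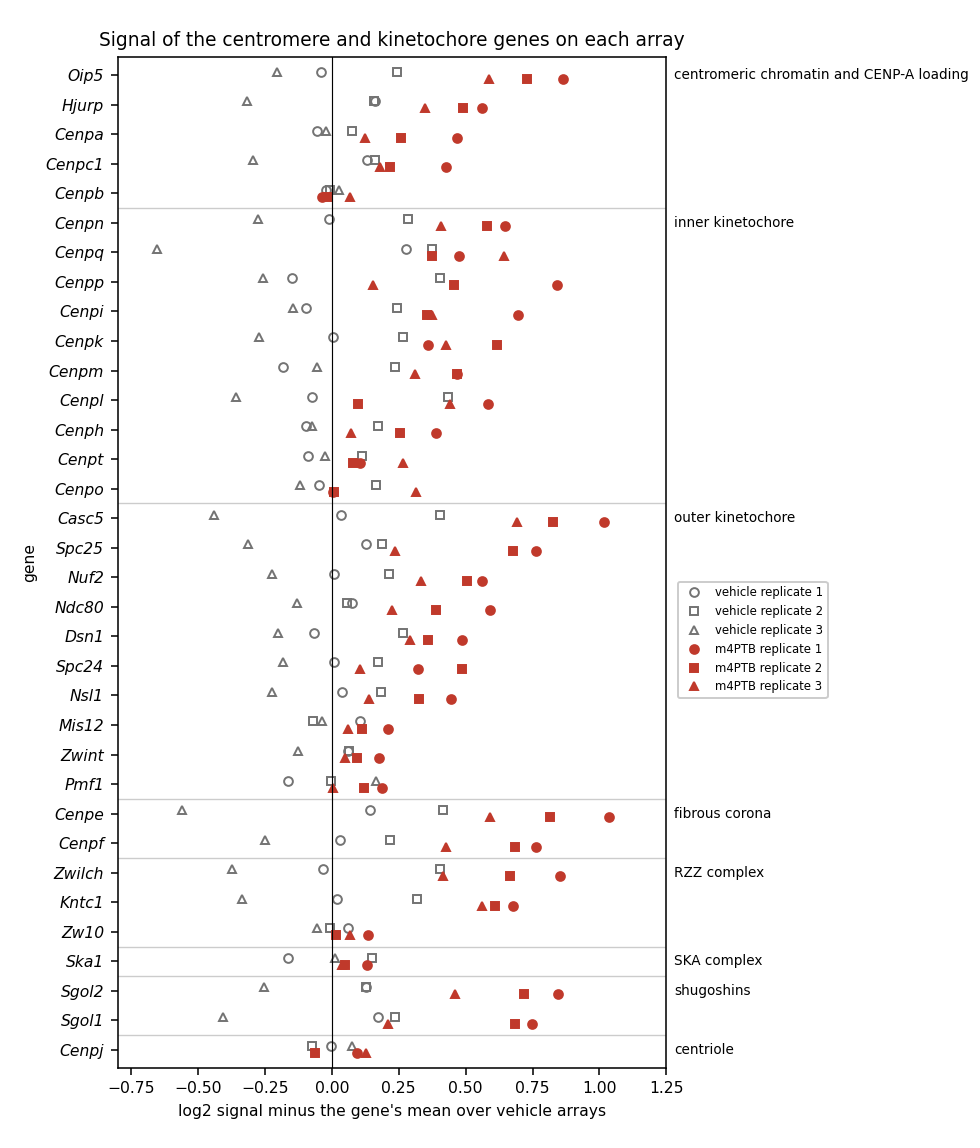
Log2 signal of each of the 34 genes on each array, minus that gene's mean over the 3 vehicle arrays, with vehicle arrays as open grey and m4PTB arrays as filled red symbols and genes grouped by role. In 25 of the 34 genes the lowest array is vehicle replicate 3 (grey triangle), and in 26 the highest is m4PTB replicate 1 (red circle).

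Most of the genes shared their highest and lowest arrays. Averaged over the 34 genes, the signal was 6.76, 6.95 and 6.55 in vehicle replicates 1, 2 and 3 and 7.25, 7.14 and 7.04 in m4PTB replicates 1, 2 and 3. The groups were closest between vehicle replicate 2, the highest vehicle array for 26 of the 34 genes (30.8% of all genes), and m4PTB replicate 3, the lowest m4PTB array for 25 of them (36.9% of all genes). The spread among vehicle kidneys was wide: the median standard deviation of a member over the 3 vehicle arrays was 0.22, against 0.12 over all genes. The difference between groups was larger than the whole vehicle range for 9 of the 34 genes (26.5%), against 13.1% of all genes in either direction.

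Vehicle replicate 3 gave the lowest of the 6 values for 25 of the 34 members, but also for 34% of all genes. It gave the highest value for 0 of the 34 members, against 29.9% of all genes. Without it all 34 genes were higher in m4PTB and the median difference was 0.29. Without it 17 genes had an unadjusted p under 0.05 (4.3% of all genes, higher), with Spc24, Nsl1 and Sgol1 no longer among them, 19 did not overlap between groups (14.1% of all genes) and 2, Casc5 and Oip5, differed by at least 1.5-fold (0.148% of all genes), while 20 lay above the 95th percentile of all genes, then 0.20 (5.0% of genes).

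Most of these genes were dim on the arrays. The 90th percentile of the negative controls was 7.73 to 7.86 per array, and 5 of the 34 genes (Cenpb, Cenpm, Spc25, Casc5 and Zwint) exceeded it on at least 3 arrays, against 44.4% of all genes, while 25 exceeded it on no array. The median difference was 0.41 in those 5 and 0.40 in the other 29, where all genes of such low signal had a median of -0.02. Without vehicle replicate 3 these medians were 0.39, 0.28 and 0.02. Casc5 and Cenpm reached 3 arrays only with m4PTB arrays counted, so the set of 5 depends in part on the m4PTB values. The genes above that percentile on all 6 arrays were Cenpb, Zwint and Spc25, with differences of 0.0048, 0.11 and 0.56.

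Promoters were examined because most of the genes shared their highest and lowest arrays. RefSeq windows of 250 bases before to 50 bases after the annotated start (GRCm38.p6, a build later than that of the array annotation) were at hand for 30 of the 34 genes. They were searched on both strands for letters known from promoters of cell cycle genes: TTTGAA and its variant TTCGAA for the cell cycle genes homology region (CHR), which is bound by the DREAM repressor complex in resting cells, CCAAT for the CCAAT box, and for E2F sites the form TTCCCGC, the form TTCGCGC, the form TTGCCGC and the form TTGGCGC. None of these motifs holds another whole, though matches of different motifs can overlap in part. CHR letters were in 14 of the 30 members (46.7%), against 19.2% of all 32851 windows. CCAAT was in 20 (66.7%, against 37.4%) and the E2F letters in 11 (36.7%, against 9.57%). Counted over the 13525 genes tested that had a window, the shares were 17.3% for CHR, 42.0% for CCAAT and 16.6% for E2F.

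The CHR letters of 10 genes lay within 50 bases of the start, a distance chosen after the matches were seen, against 5.31% of all windows and 4.59% of the genes tested. They are shown as the sites nearest the start, and as the distance was chosen with the differences known, the values of these genes are a description. Each line gives the site with up to 12 bases on either side in the direction of the gene, and capitals mark the CHR letters, which read TTCAAA where TTTGAA lies on the opposite strand.
Cenpa (chr5:30666890-30666919, plus strand): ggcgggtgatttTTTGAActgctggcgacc
Hjurp (chr1:88277543-88277572, minus strand): tgcgtaaatactTTTGAAagaccctattag
Oip5 (chr2:119618456-119618484, minus strand): agaggcgcgcgcTTCAAAgaaatatggcg
Cenpn (chr8:116921719-116921748, plus strand): gccattggcggcTTCAAAagcacctcggcg
Ndc80 (chr17:71526811-71526840, minus strand): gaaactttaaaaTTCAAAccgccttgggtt
Spc25 (chr2:69206172-69206201, minus strand): ggcggtggagagTTTGAAattgaaagactg
Knl1 (chr2:119047138-119047167, plus strand): agggcggttagaTTTGAAtacttcagggac
Cenpf (chr1:189688067-189688096, minus strand): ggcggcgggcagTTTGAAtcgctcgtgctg
Kntc1 (chr5:123749706-123749735, plus strand): ttctcccgccaaTTCAAAtcagtggcaggg
Sgo1 (chr17:53689271-53689300, minus strand): gtaacgcagaatTTCGAAtgtggcggcggt

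The first base of the CHR letters lay between 9 bases before the start (Cenpn) and base 34 after it (Oip5), and it lay after the start in 8 of the 10 genes. Over the whole window, the 14 genes with CHR letters had a median difference of 0.51, from 0.07 (Zw10) to 0.85, 11 of them with an unadjusted p under 0.05, and the 16 genes without had a median of 0.33, 6 of them with such a p. Pmf1 (0.10), also with a small difference, was among the 14. Over all genes tested, with or without a window, 4.67% were higher with an unadjusted p under 0.05. The members with and without CHR letters were not tested against each other. Within 50 bases, the 10 genes ran from 0.28 to 0.85 with a median of 0.55, and the 20 genes with a window but no CHR letters this close had a median of 0.32. Over all genes tested with a window, the median was 0.02 with CHR letters and 0.01 without, and 0.04 with CHR letters this close and 0.01 without. Cenpe (0.81) and Sgol2 (0.68) had no CHR letters in their windows. For CCAAT the median was 0.471 in the 20 genes that held it and 0.265 in the other 10. For the E2F letters the median was 0.37 in the 11 genes that held them and 0.47 in the other 19. Within 50 bases, CCAAT was in 46.7% of the members with a window (15.9% of genes tested) and E2F letters in 26.7% (6.83%).

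The 120 bases before the start are shown for the 3 genes of largest difference with a window and, chosen after its values were seen, for Cenpb. Capitals mark CCAAT or its reverse ATTGG in the first 3 and E2F letters in Cenpb.
Knl1 (chr2:119046999-119047118, plus strand): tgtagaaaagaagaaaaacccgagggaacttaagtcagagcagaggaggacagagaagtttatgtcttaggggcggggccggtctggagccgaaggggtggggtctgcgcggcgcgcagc
Cenpe (chr3:135212443-135212562, plus strand): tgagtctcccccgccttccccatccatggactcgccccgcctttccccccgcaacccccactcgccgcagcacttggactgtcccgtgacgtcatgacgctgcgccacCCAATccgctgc
Oip5 (chr2:119618506-119618625, minus strand): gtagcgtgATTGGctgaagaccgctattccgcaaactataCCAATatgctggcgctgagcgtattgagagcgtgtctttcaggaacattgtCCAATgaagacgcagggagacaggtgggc
Cenpb (chr2:131180068-131180187, minus strand): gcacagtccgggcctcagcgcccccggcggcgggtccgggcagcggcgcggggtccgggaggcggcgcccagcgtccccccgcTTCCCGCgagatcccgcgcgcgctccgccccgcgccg

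Oip5 held 3 such CCAAT matches in this stretch and Cenpe held 1 close to the start, whereas the stretch of Casc5, the gene of largest difference, held none. Cenpb held E2F letters but no CHR or CCAAT letters in its window. A match is a description of the sequence and shows no binding.

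**Figure D2:**
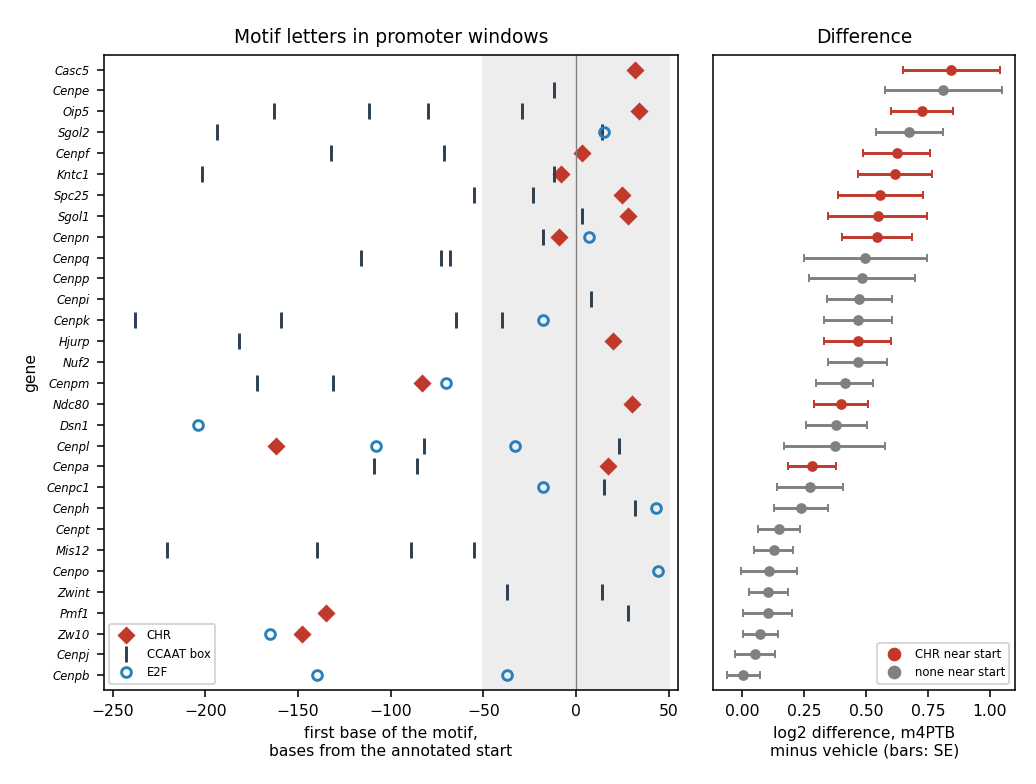
Left, first base of each match to the CHR, CCAAT box and E2F letters in the promoter windows of 30 genes, in bases from the annotated start, with matches of several windows of a gene drawn together and the 50 bases on either side of the start shaded. Right, the log2 difference (m4PTB minus vehicle) of the same genes with standard errors, where the 10 genes with CHR letters in the shaded part (red) run from 0.28 to 0.85.

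Centromeric chromatin and the loading of CENP-A were represented by 5 genes, all higher. Of these, 3 had an unadjusted p under 0.05 (4.67% of all genes, higher) and 4 did not overlap between groups (9.39% of all genes, higher). Oip5, a subunit of the Mis18 complex that licenses centromeres for new CENP-A, was at 5.61, 5.90 and 5.45 in vehicle replicates 1, 2 and 3 and at 6.52, 6.38 and 6.24 in m4PTB replicates 1, 2 and 3. Its groups were 0.34 apart at their closest, and the difference of 0.73 (SE 0.13) had the smallest p of the 34 genes, with a limma adjusted p of 0.52. Its signal was near background: each vehicle value lay below that array's negative control median, and no array exceeded the negative controls' 90th percentile. Hjurp, the chaperone that deposits CENP-A, was at 7.56, 7.56 and 7.08 in vehicle and 7.96, 7.89 and 7.75 in m4PTB kidneys, in the same replicate order. Here vehicle replicate 3 was the low array, and the difference of 0.47 (SE 0.14, limma adjusted p = 0.63) was 0.31 without it. Cenpa itself was at 7.66, 7.80 and 7.70 in vehicle and 8.19, 7.98 and 7.84 in m4PTB kidneys. Its vehicle values lay close together, and the difference of 0.28 (SE 0.10, limma adjusted p = 0.68) was 0.27 without vehicle replicate 3. Cenpc1, the CENP-C protein that links CENP-A nucleosomes to the outer kinetochore, differed by 0.27, and by 0.13 without that array. Its groups were only 0.02 apart, with an unadjusted limma p of 0.074. Cenpb, which binds the repeat DNA of centromeres, was at 8.90, 8.91 and 8.94 in vehicle and 8.88, 8.90 and 8.99 in m4PTB kidneys. Its groups overlapped throughout, with a difference of 0.0048 (SE 0.07), or 0.02 without vehicle replicate 3, and it was above the negative controls' 90th percentile on all 6 arrays.

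The inner kinetochore network was represented by 10 genes, with a median difference of 0.44 and of 0.27 without vehicle replicate 3. All 10 were higher, 4 with an unadjusted p under 0.05 (4.67% of all genes, higher), and the same number did not overlap between groups (9.39%). Cenpn, which reads CENP-A nucleosomes directly, was at 7.38, 7.68 and 7.11 in vehicle and 8.04, 7.97 and 7.80 in m4PTB kidneys. The groups were 0.12 apart, with a difference of 0.54 (SE 0.14, limma adjusted p = 0.59). Cenpm was at 7.69, 8.10 and 7.81 in vehicle and 8.34, 8.33 and 8.18 in m4PTB kidneys, with vehicle replicate 1 the lowest, and differed by 0.41 (SE 0.11, limma adjusted p = 0.62), or 0.39 without vehicle replicate 3. Cenpi, which forms a complex with the products of Cenph, Cenpk and Cenpm, was at 5.73, 6.07 and 5.68 in vehicle and 6.52, 6.18 and 6.20 in m4PTB kidneys. Its m4PTB replicate 1 stood highest, and the difference was 0.47 (SE 0.13, limma adjusted p = 0.62). Of its partners, Cenpk differed by 0.47 and its groups did not overlap, while Cenph differed by 0.24 and m4PTB replicate 3 lay below vehicle replicate 2. The signal of Cenph lay below the negative controls' median on all arrays.

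Among the other inner genes Cenpp was at 4.83, 5.38 and 4.72 in vehicle and 5.82, 5.44 and 5.13 in m4PTB kidneys. Its groups overlapped and its difference of 0.48 had a standard error of 0.21. On all arrays its signal lay below the negative controls' median. Vehicle replicates 1 and 3 lay below the filter's level of 5, so Cenpp passed only with m4PTB arrays counted. Cenpq differed by 0.50 (SE 0.25) with vehicle replicate 3 far below the rest, at 4.92 where the other vehicle arrays gave 5.85 and 5.94, and by 0.17 without it. Cenpl differed by 0.37, and by 0.20 without that array. Cenpt, whose product recruits the NDC80 complex beside CENP-C, differed by 0.15, and Cenpo by 0.11, or 0.05 without vehicle replicate 3. Cenpo had another probe set, of lower mean, which differed by -0.0057. Differences between members were not tested.

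The outer kinetochore was represented by 10 genes, with a median difference of 0.34, and of 0.25 without vehicle replicate 3. All 10 were higher, 7 with an unadjusted p under 0.05 (4.67% of all genes, higher), and 5 did not overlap between groups (9.39%). Casc5 (now Knl1), the scaffold to which the checkpoint kinases bind, had the largest difference of the 34 genes. It was at 7.46, 7.83 and 6.99 in vehicle and 8.44, 8.25 and 8.12 in m4PTB kidneys. The groups were 0.29 apart although vehicle kidneys ranged over 0.84, and the difference of 0.85 (SE 0.20, limma adjusted p = 0.58) was 0.63 without vehicle replicate 3. Zwint, which binds KNL1 and helps to recruit the RZZ complex, was at 9.78, 9.78 and 9.59 in vehicle and 9.90, 9.81 and 9.77 in m4PTB kidneys. Its groups overlapped, and the difference of 0.11 (SE 0.08) was 0.04 without vehicle replicate 3.

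All 4 subunits of the NDC80 complex, the main microtubule coupler, were higher with an unadjusted p under 0.05, but Spc24 missed that threshold with each array's median subtracted and without vehicle replicate 3. Nuf2 was at 6.75, 6.95 and 6.52 in vehicle and 7.30, 7.24 and 7.07 in m4PTB kidneys, a difference of 0.47 (SE 0.12, limma adjusted p = 0.59). Its partner Ndc80 was at 6.07, 6.05 and 5.86 in vehicle and 6.59, 6.38 and 6.22 in m4PTB kidneys, a difference of 0.40 (SE 0.11, limma adjusted p = 0.62). Neither gene overlapped between groups. Spc25 differed by 0.56 and Spc24 by 0.30, or 0.21 without that array, and for Spc24 m4PTB replicate 3, at 7.12, lay below vehicle replicate 2, at 7.19. In the MIS12 complex, which joins the inner to the outer kinetochore, Dsn1 differed by 0.38 and Nsl1 by 0.30, both with an unadjusted p under 0.05. Nsl1 had an unadjusted limma p of 0.066 with each array's median subtracted, and without vehicle replicate 3 it differed by 0.19 with an unadjusted limma p of 0.10. Mis12 differed by 0.13 and Pmf1 by 0.10, with overlapping groups. For Pmf1 vehicle replicate 3 was the highest vehicle array, and its difference was 0.19 without it.

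The fibrous corona, the outermost layer of the unattached kinetochore, was represented by Cenpe and Cenpf, and both differed by over 1.5-fold. Cenpe, a kinesin motor that carries chromosomes to the spindle equator, was at 6.61, 6.88 and 5.91 in vehicle and 7.50, 7.28 and 7.05 in m4PTB kidneys. The groups did not overlap, and the difference of 0.81 (SE 0.23, limma adjusted p = 0.62) was 0.53 without vehicle replicate 3. Cenpf, a large coiled-coil protein that links kinetochores to dynein regulators, was at 7.23, 7.41 and 6.95 in vehicle and 7.96, 7.88 and 7.62 in m4PTB kidneys, a difference of 0.63 (SE 0.14, limma adjusted p = 0.57). It was 0.50 without that array.

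The RZZ complex brings dynein and the checkpoint proteins MAD1 and MAD2 to kinetochores, and all 3 subunits were measured. Kntc1 was at 6.38, 6.68 and 6.02 in vehicle and 7.03, 6.97 and 6.92 in m4PTB kidneys. Its m4PTB values ranged over 0.11, and the difference was 0.62 (SE 0.15, limma adjusted p = 0.58). Zwilch was at 6.49, 6.93 and 6.15 in vehicle and 7.38, 7.19 and 6.94 in m4PTB kidneys, groups that were 0.01 apart, with a difference of 0.64 (SE 0.19, limma adjusted p = 0.64). Zw10 was at 7.43, 7.36 and 7.31 in vehicle and 7.50, 7.38 and 7.44 in m4PTB kidneys. Its groups overlapped, and the difference was 0.07 (SE 0.07), or 0.05 without vehicle replicate 3.

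The shugoshins protect cohesion at centromeres, and both were higher with an unadjusted p under 0.05 (4.67% of all genes, higher). Sgol2 (now Sgo2a) was at 7.0, 7.0 and 6.62 in vehicle and 7.72, 7.59 and 7.34 in m4PTB kidneys. The groups were 0.33 apart, and the difference of 0.68 (SE 0.14, limma adjusted p = 0.54) was 0.55 without vehicle replicate 3. Sgol1 (now Sgo1) was at 6.50, 6.57 and 5.92 in vehicle and 7.08, 7.01 and 6.54 in m4PTB kidneys, so that m4PTB replicate 3 lay just below vehicle replicate 2, and it differed by 0.55 (SE 0.20, limma adjusted p = 0.68). Without vehicle replicate 3, Sgol1 differed by 0.34, with an unadjusted limma p of 0.063. The SKA complex, which follows shrinking microtubule ends, was represented under its current symbols by Ska1 alone, at 5.08, 5.40 and 5.26 in vehicle and 5.38, 5.30 and 5.28 in m4PTB kidneys. Its groups overlapped, its difference was 0.07 (SE 0.09), and its signal lay below the negative controls' median on all arrays. Ska2 and Ska3 were found only when older symbols were updated through RefSeq, and there they differed by 0.30 (SE 0.12, limma adjusted p = 0.68) and 0.62 (SE 0.19, limma adjusted p = 0.64). Cenpj, a centriole assembly protein, was at 6.27, 6.20 and 6.35 in vehicle and 6.37, 6.21 and 6.40 in m4PTB kidneys, with a difference of 0.05 (SE 0.08), or 0.09 without vehicle replicate 3.

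**Figure D3:**
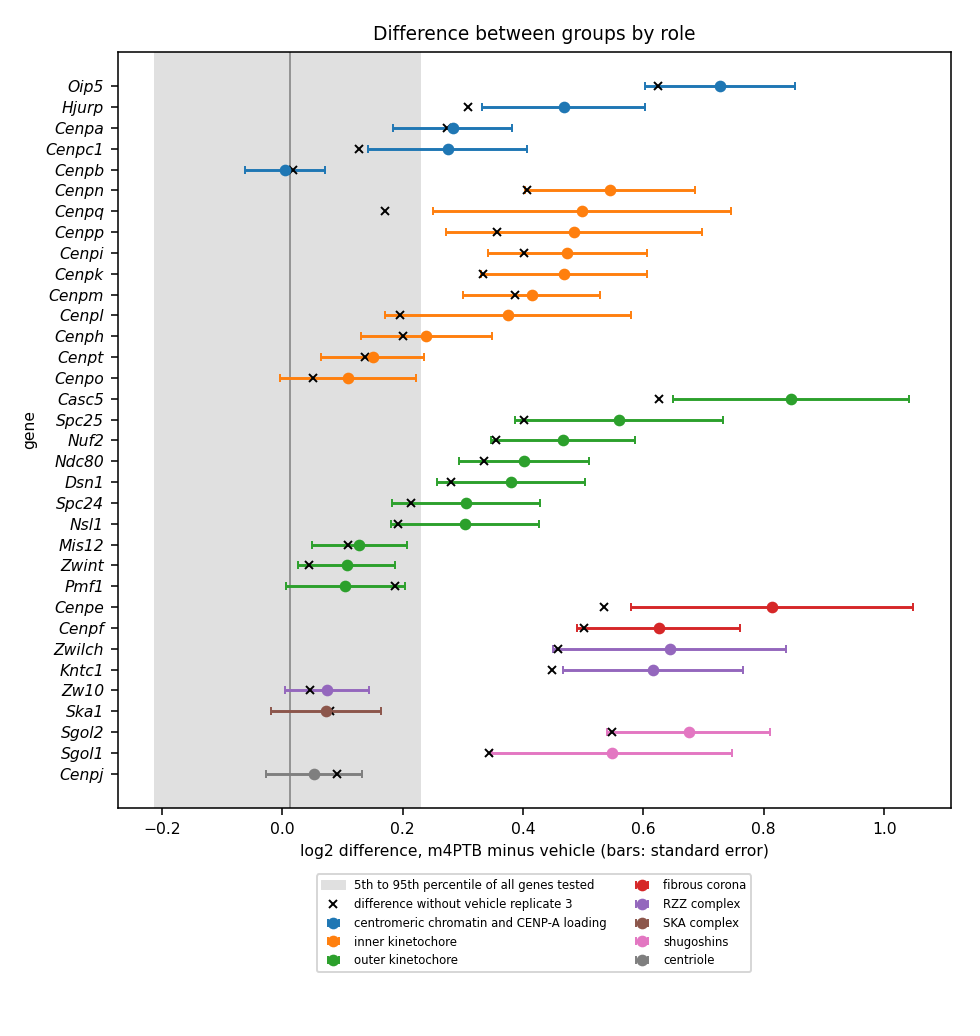
Log2 difference between groups (m4PTB minus vehicle) for each gene, coloured by role, with standard errors of the limma fit as bars, crosses for the difference without vehicle replicate 3, and the 5th to 95th percentile of all 18215 genes as a grey band. The band ends at 0.23 and 25 of the 34 points lie above it, while Cenpb lies at 0.0048.

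For these 34 genes the exact two-sided permutation test over the 6 samples gave its smallest possible value, p = 0.1, for the 18 genes whose groups did not overlap, and between 0.2 and 0.9 for the other 16.

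Genes of related function outside the 34 were compared from 2 lists. Of all genes, 4.67% were higher with an unadjusted p under 0.05. Of 29 other genes of centromere and kinetochore or their assembly, 25 were measured, 21 higher and 4 lower, 6 of them higher and none lower with an unadjusted p under 0.05, and the median difference was 0.10. Their summed log2 level ran from 189.72 to 194.67 in vehicle and from 195.08 to 197.96 in m4PTB arrays. With each array's median subtracted 18 were higher and 7 lower, 3 of them higher with an unadjusted p under 0.05. Those of smallest p were Mlf1ip, the inner kinetochore protein CENP-U, at 6.01, 6.09 and 6.21 in vehicle and 6.58, 6.49 and 6.44 in m4PTB kidneys, a difference of 0.40 (SE 0.08, limma adjusted p = 0.54), and the kinesins Kif2c, with 0.69, and Kif18a, with 0.64. For Mlf1ip vehicle replicate 3 was the highest vehicle array, unlike in most of the 34 genes, and the difference was 0.45 without it. The genes with a lower mean were Stra13, the histone-fold protein CENP-X, at -0.06, the DNA methyltransferase Dnmt3b at -0.04, Bod1 at -0.03 and Ccdc99 at -0.0035. All 16 genes of the spindle checkpoint and the chromosome passenger complex were higher, also under both other scalings, 13 with an unadjusted p under 0.05, with a median of 0.48, or 0.31 without vehicle replicate 3. Those of smallest p were Bub1b, a kinase-like checkpoint protein bound through KNL1, with 0.66, Aurkb, the Aurora kinase of the passenger complex, with 0.68, and Aurka, the Aurora kinase of spindle poles, with 0.56.

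Markers of dividing cells were compared beside the centromere and kinetochore genes. All 6 (Mki67, Top2a, Pcna, Ccnb1, Cdk1 and Mcm2) were higher under all 3 scalings, with no overlap between groups and an unadjusted p under 0.05, with a median of 0.84. As deposited, 9.39% of all genes did not overlap, higher, and 4.67% were higher with such a p. Mki67, the Ki-67 antigen of cycling cells, was at 9.49, 9.94 and 8.92 in vehicle and 10.35, 10.38 and 10.08 in m4PTB kidneys. Their summed log2 level ran from 50.54 to 54.58 in vehicle and from 55.50 to 58.20 in m4PTB arrays, lowest on vehicle replicate 3 and highest on m4PTB replicate 1, as for the mean of the 34 genes. Their part in the differences of the 34 genes was not tested.

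Markers of cell types were compared as levels per array. All 13 markers of proximal tubule and of the loop of Henle and distal nephron lay above the negative controls' 90th percentile on every array, among them Slc34a1, Lrp2 and Umod. Of the 6 proximal tubule markers 4 were higher and 2 lower (1 and 5 with each array's median subtracted), and all 7 distal markers were lower under all 3 scalings, none with an unadjusted p under 0.05 as deposited and 2 with each array's median subtracted. Summed log2 levels of the 6 proximal tubule markers were 71.59 to 72.35 in vehicle and 72.07 to 72.39 in m4PTB arrays, and those of the 7 distal markers 77.20 to 77.86 and 75.61 to 77.44. Of 5 injured tubule markers, all had a higher mean in m4PTB (4 after cyclic loess and 3 with each array's median subtracted), Clu with an unadjusted p under 0.05. Their sums were 45.20 to 48.32 and 47.21 to 49.85, lowest on vehicle replicate 3 and highest on m4PTB replicate 1, as for the centromere and kinetochore genes, while Havcr1 (Kim1) differed by 0.01 and Lcn2 by 0.66 (SE 0.33), or by -0.09 and 0.27 without vehicle replicate 3. Kim1 was among the measures by which kidneys had been selected, so the small difference of Havcr1 is no independent observation. Of 5 measured macrophage markers, all were higher (4 under both other scalings, with Csf1r turned), Mrc1 with an unadjusted p under 0.05, with sums of 34.98 to 36.99 and 36.36 to 37.84. Of 5 endothelial markers 4 were higher (3 under both other scalings, with Kdr turned), Pecam1 with an unadjusted p under 0.05, with sums of 44.42 to 45.58 and 45.27 to 45.82. Of 5 fibroblast markers 4 were higher and Dcn was lower with an unadjusted p under 0.05, with sums of 43.27 to 45.28 and 45.22 to 45.31. Of 4 podocyte markers 3 were higher (2 with each array's median subtracted), none with an unadjusted p under 0.05, with sums of 34.53 to 35.30 and 35.07 to 35.39. All 4 measured T and B cell markers, all lower (3 after cyclic loess), and the 1 measured neutrophil marker lay above the negative controls' 90th percentile on no array, and the sums of the former were 23.91 to 25.74 and 23.95 to 24.53. The part of any of these cells in the differences of the 34 genes was not tested.

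**Figure D4:**
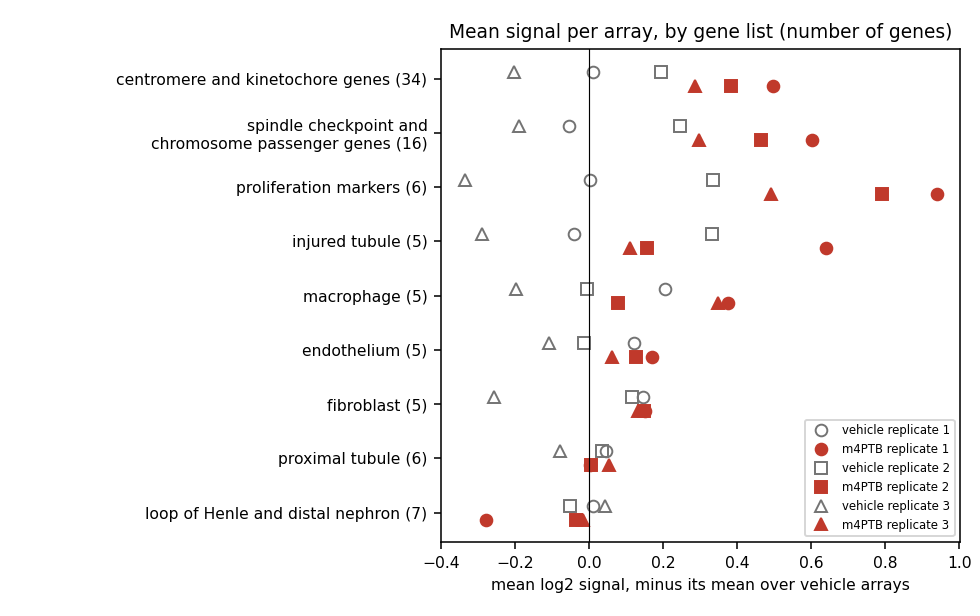
Mean log2 signal per array over the genes of each list, minus its mean over the vehicle arrays, with vehicle arrays as open grey and m4PTB arrays as filled red symbols and the number of genes in parentheses. The m4PTB arrays lie above all vehicle arrays for the 34 centromere and kinetochore genes, the 16 checkpoint and passenger genes and the 6 proliferation markers, and the groups overlap for the other lists shown.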

How the data were processed

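Total RNA of 6 whole kidneys was hybridised to Affymetrix Mouse Gene 1.0 ST arrays, per the file headers. The deposited values are log2 signals per probe set, which the authors made by RMA with Expression Console 1.1 from Affymetrix, according to the submitters' processing notes. RMA usually makes the arrays' distributions equal, which would hide a shift common to most genes. The value table holds 35556 probe sets. Symbols came from the deposited annotation table, in which 6 signal columns match no sample's labels and were not used. Control probe sets and those without exactly 1 symbol were left out, and 25004 had 1 symbol. Of several probe sets per gene the brightest on average was used, and genes reaching 5 (log2) on 3 or more arrays were tested. Groups and replicate numbers came from the sample titles. The labels only number the replicates, so the p-values reflect variation among these kidneys' arrays, part of which may be technical, and 3 arrays per group limit the precision.

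Differences (m4PTB minus vehicle) come from a linear model without covariates in limma (version 3.58.1, R 4.3.3) with moderated variances. The Benjamini-Hochberg adjustment covered all 18215 genes. The procedure was tested on simulated data. Members and lists were chosen with earlier results of these data known, so no list was tested. Values on every array are given for up to 3 genes of smallest p per role, Cenpa and the genes of highest and lowest signal, and for other genes where their arrays are described. From the lists of other kinetochore and checkpoint genes, up to 3 genes of smallest p in each direction are named. Alternatives were other scalings, filters, variance models, array weights, probe set choices, updated symbols, a replicate block and each array left out.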

Additional observations from a re-analysis of the deposited data

How the results depend on the processing

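No alternative gave a gene with an adjusted p under 0.05 by limma (0 genes in each setting run, with 1318 genes at an unadjusted p under 0.05 in the reported fit). The median difference over the 34 genes lay between 0.31 and 0.42 under the other alternatives and between 0.29 (without vehicle replicate 3) and 0.54 (without vehicle replicate 2) when an array was left out. With an array left out, 15 (without m4PTB replicate 1) to 25 (without vehicle replicate 2) of the 34 genes had an unadjusted p under 0.05. The shares of all genes, higher, were 2.62% and 6.09% in those settings. From 18 to 28 (without vehicle replicate 2) of the 34 did not overlap, and 32 to 34 were higher. Of all genes, 14% to 17.6% did not overlap, higher, with an array left out, against 9.39% with none left out. In all, 842 (without m4PTB replicate 1) to 1809 genes had an unadjusted p under 0.05, and 861 without m4PTB replicate 2. When genes had to exceed the 90th percentile of negative controls, 5 of the 34 genes were left to test, and 5 were higher. Of these, 3 had an unadjusted p under 0.05 (6.83% of all genes so filtered, higher) and 3 did not overlap (12.3%). Casc5 and Cenpm, among those 3, passed this filter only with m4PTB arrays counted, so these counts are no independent check. There were 772 genes in all at that p, since fewer genes were tested. Directions turned for genes near 0: Cenpb was at -0.0529 with each array's median subtracted, -0.0433 after cyclic loess and from -0.0279 (without m4PTB replicate 3, and -0.0053 without vehicle replicate 1) to 0.0264 with an array left out, Cenpj at -0.0046 with each array's median subtracted, Cenpo at -0.0014 with array weights, and Ska1 from -0.0097 (without vehicle replicate 1) to 0.1484 with an array left out. The cause was not tested. Over all genes same-numbered arrays did not pair: their deviations from group means correlated by -0.128, -0.05 and -0.08. Averaged over the 34 genes, replicate 3 was the lowest array of each group, at 6.55 in vehicle and 7.04 in m4PTB. The highest was replicate 2 in vehicle but replicate 1 in m4PTB. With the replicate block, 22 of the 34 genes and 1102 genes in all had an unadjusted p under 0.05, and no call changed. After median subtraction, genes at that p shifted from 851 higher and 467 lower to 437 higher and 1076 lower, with 17 of the 34 members among the higher. The swap to the signal columns of the full table was not run, since they match no sample. Signal near background limits what can be said of 25 of the 34 genes.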
